A study of Mus musculus with 9 samples.

Results

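Insulin and insulin-like growth factor 1 act on cells through a common pathway, and its transcripts were followed in the fasted mouse substantia nigra. The 10 genes described here are Insr and Igf1r, which encode the receptors, the growth factor gene Igf1, the receptor substrates Irs1 and Irs2, the phosphoinositide 3-kinase subunit Pik3r1, and the FoxO transcription factors Foxo1, Foxo3, Foxo4 and Foxo6. They were chosen by symbol from the 20591 rows of the deposited count table, and all 10 were present and passed the filter on low counts. In the pathway, a ligand-bound receptor phosphorylates the substrates, and these recruit phosphoinositide 3-kinase. The kinase Akt then phosphorylates FoxO proteins such as FoxO1 and FoxO3, which as a result leave the nucleus. When insulin is low, as in fasting, such FoxO proteins return to the nucleus and switch on genes of stress resistance and nutrient economy. Much of this control acts on proteins, which were not measured here.

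All mice were C57BL/6, carried the label Sham in place of a genotype, with no other allele or agent named, and were 12 weeks old when allocated to a diet. The 1 week group had intermittent fasting with 3 fasts of 24 hours within the week, the 1 day group had a single fast, and the ad libitum group had food throughout for 1 week and was handled on the same schedule. Fasts began 2 hours before lights off, and how long after a fast tissue was taken is not stated in the labels. Each group had 3 libraries of polyA RNA from substantia nigra lysate, with totals from 36109995 to 54248856 counts in the 1 week group, 37732284 to 46522059 in the 1 day group and 38516394 to 45693865 in the ad libitum group. Whether each library came from its own animal is not stated in the labels, and the p-values therefore rest on differences among libraries that may be partly technical. Markers of dopaminergic neurons, which define the substantia nigra, were present in every library. The summed level of 6 such genes was 787 to 1336 CPM in the 1 week group, 494 to 1019 CPM in the 1 day group and 805 to 1056 CPM in the ad libitum group. CPM are counts scaled to a common effective library size, so that libraries of different depth can be set side by side. In this tissue, which mixes cell types, fewer cells of a type and less RNA per cell cannot be told apart. In 1 day replicate 2, 27.3% of 12799 genes were at their lowest and 29.2% at their highest of the 9 libraries, and its estimated quality weight was 0.213, against 0.507 to 1.93 in the others.

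None of the 10 genes passed the test in any comparison by edgeR's quasi-likelihood test with an adjusted p below 0.05. The test called 0.307% of all 20535 genes for 1 week against ad libitum, 0.0584% for 1 day against ad libitum (0.00487% lower) and 0% for 1 week against 1 day. At an unadjusted p below 0.05, 1 of the 10 genes was higher after 1 week, Igf1r, and 0 were lower, where 11.2% of all genes reached that level, 6.33% higher and 4.9% lower. After 1 day 0 of the 10 reached it, against 9.27% of all genes, 4.37% higher and 4.9% lower. Between 1 week and 1 day 0 of the 10 did, against 5.22%, 3.53% higher and 1.69% lower. DESeq2 and limma's voom with quality weights also called 0 of the 10 in each comparison. By these tools 2.35% and 1.06% of all genes were called after 1 week, 0.915% and 0.278% after 1 day, and 0.0146% and 0% between 1 week and 1 day. At an unadjusted p below 0.05 each had 3 of the 10 after 1 week, Igf1r, Foxo1 and Foxo3, where DESeq2 had 11.3% and voom 16.7% of all genes. Each had 0 of the 10 after 1 day, against 10% and 11.5% of all genes, and 0 between 1 week and 1 day, against 5.8% and 5.66%. For 5 of the 10 genes, Insr, Igf1r, Foxo1, Foxo3 and Foxo4, every 1 week library lay above every ad libitum library, a pattern shown by 10.9% of all genes, and for 0 of the 10 every 1 week library lay below, against 11.5% of all genes. After 1 day no gene of the 10 lay above all ad libitum libraries, against 8.17% of all genes, and 1 gene, Irs2, lay below them all, against 10.3%. The median log2 fold change of the 10 genes was 0.17 after 1 week and 0.069 after 1 day, beside -0.0013 and 0.00041 over all genes tested. The comparisons of 1 week and of 1 day share the ad libitum libraries.

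**Figure D1:**
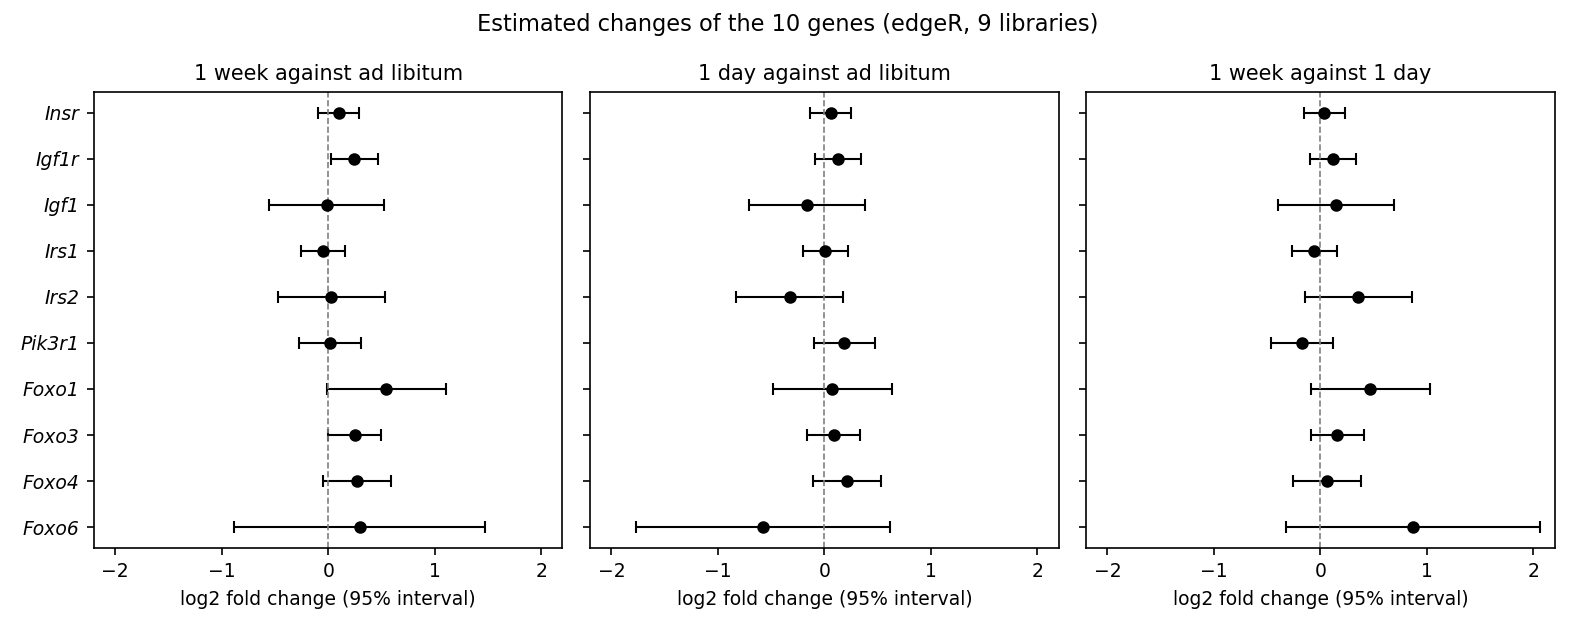
Log2 fold change of the 10 genes with its 95% interval (edgeR, 9 libraries), for 1 week against ad libitum, 1 day against ad libitum and 1 week against 1 day, with a dashed line at 0. The interval of Igf1r after 1 week, from 0.030 to 0.46, is the only one of the 30 that does not reach 0, and Foxo6 has the widest intervals.

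The receptors varied little between libraries. Igf1r, the receptor for insulin-like growth factors, was at 149, 171 and 164 CPM in replicates 1, 2 and 3 of the 1 week group, at 159, 149 and 139 CPM in the 1 day group and at 128, 140.2 and 140.1 CPM in the ad libitum group. All 3 libraries of the 1 week group were above all 3 of the ad libitum group, while the 1 day group overlapped both. For Igf1r this gave a log2 fold change of 0.25 for 1 week against ad libitum (SE 0.097, edgeR adjusted p = 0.383) and 0.13 for 1 day against ad libitum (SE 0.097, adjusted p = 0.639).

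Insr, the insulin receptor, was at 101, 99.6 and 104 CPM in the 1 week group, at 102, 91.9 and 104 CPM in the 1 day group and at 94.3, 94.1 and 96.8 CPM in the ad libitum group. The 1 week libraries again lay above the ad libitum ones without overlap, by a small margin, and 1 day replicate 2 was the lowest of the 9. The log2 fold change after 1 week was 0.098, with a 95% interval from -0.095 to 0.29 (edgeR adjusted p = 0.733), and after 1 day it was 0.061, with an interval from -0.13 to 0.25 (adjusted p = 0.801). Insr was among the steadiest transcripts of the tissue, since 2.27% of the 12799 genes with a mean of at least 2 log2 CPM had a smaller spread within groups. The ratio of Igf1r to Insr reads, which is not corrected for length and can be set side by side only between libraries, was 1.47 to 1.72 in the 1 week group, 1.34 to 1.62 in the 1 day group and 1.36 to 1.49 in the ad libitum group, and these ranges overlap.

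Igf1, the growth factor that binds Igf1r, had the lowest median of the 10 genes per length. It was at 12.7, 15.2 and 12.1 CPM in the 1 week group, at 11.3, 16.5 and 8.35 CPM in the 1 day group and at 11.7, 11.5 and 17.1 CPM in the ad libitum group. Each group had a library above 15 CPM, and the ranges of the groups overlap throughout. The log2 fold change was -0.016 after 1 week, with a 95% interval from -0.56 to 0.53, and -0.16 after 1 day, with an interval from -0.70 to 0.39 (edgeR adjusted p = 0.990 and 0.814). Microglia are a known source of Igf1 in brain, and the summed level of 6 microglia markers was 147 to 244 CPM in the 1 week group, 176 to 197 CPM in the 1 day group and 239 to 265 CPM in the ad libitum group. The part of microglia in the level of Igf1 was not tested.

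**Figure D2:**
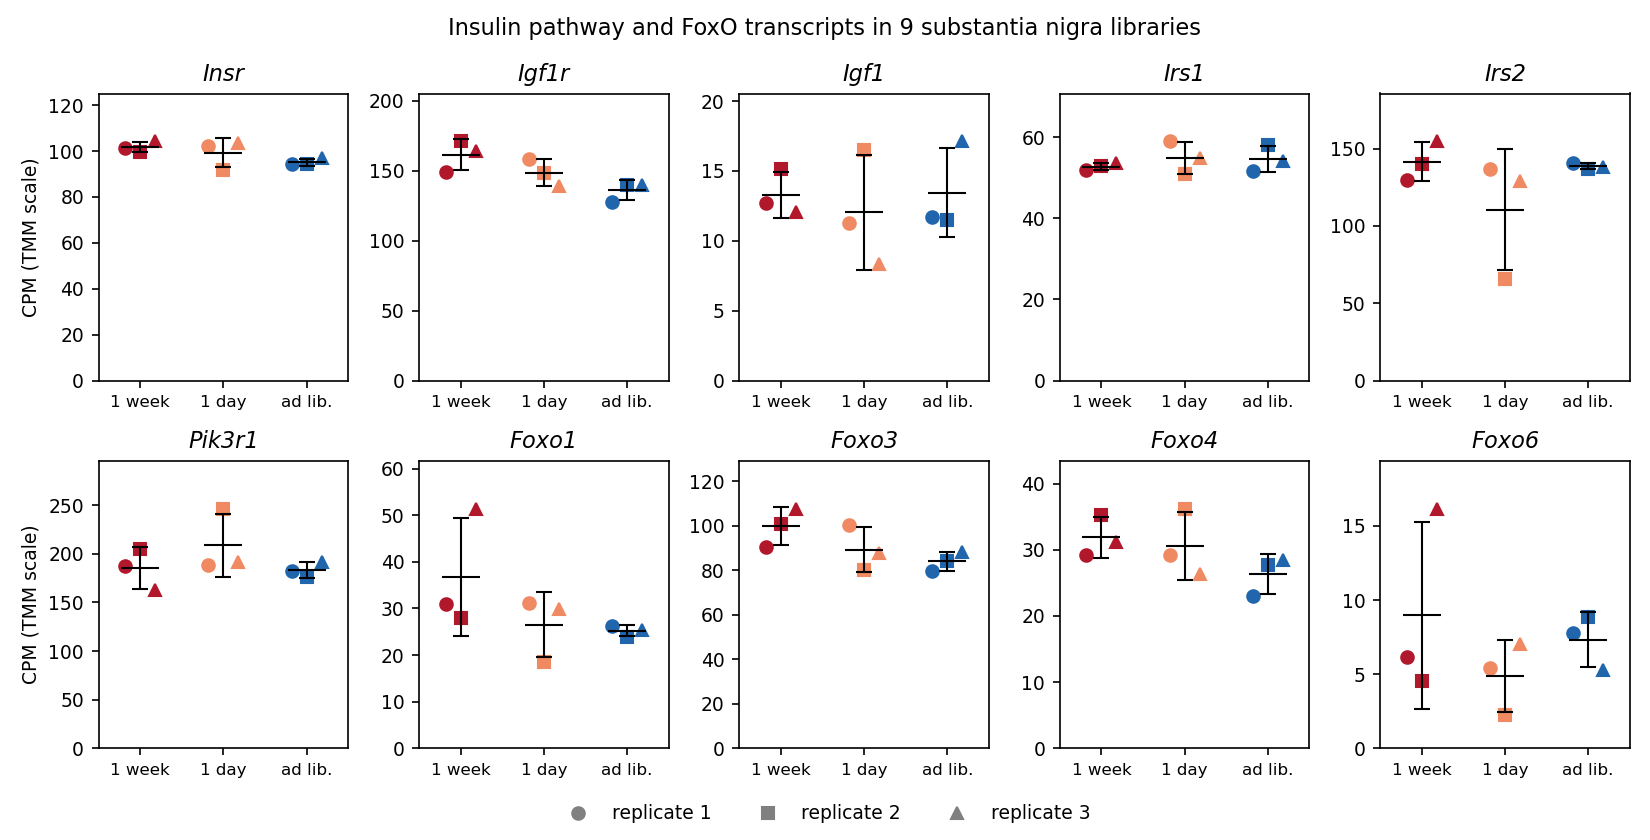
CPM of each of the 10 genes (vertical axes from 0, each gene on its own scale) in the 1 week, 1 day and ad libitum groups, with ad libitum shortened to ad lib. on the axes. Symbols stand for replicates 1, 2 and 3, and lines with bars for the mean and SD of 3 libraries. The Irs2 value of 1 day replicate 2, at 65.9 CPM, lies far below the other 8, and Foxo1 and Foxo6 are highest in 1 week replicate 3.

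The receptor substrates differed in how steady they were. Irs1 had 51.8 to 53.5 CPM in the 1 week group, 50.9 to 58.9 CPM in the 1 day group and 51.5 to 57.9 CPM in the ad libitum group. These ranges overlap, and the log2 fold change was -0.048 after 1 week (95% interval -0.26 to 0.16, edgeR adjusted p = 0.893) and 0.0088 after 1 day (interval -0.20 to 0.22, adjusted p = 0.981).

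Irs2 is a substrate whose gene FoxO proteins are known to activate in liver. It was at 129, 140.3 and 155 CPM in the 1 week group, at 137.0, 65.9 and 129 CPM in the 1 day group and at 141, 137.1 and 138 CPM in the ad libitum group. The 1 day libraries all lay below the ad libitum ones, but replicate 1 did so by 137.0 against 137.1 CPM, and the low mean of the group, 111 ± 38.9 CPM against 139 ± 1.99 CPM in the ad libitum group (SD, n = 3), came from replicate 2. That library was 0.97 below the next lowest on the log2 scale, a gap larger than that of 98.6% of genes. The log2 fold change after 1 day was -0.32 (SE 0.22, edgeR adjusted p = 0.609) with all libraries and -0.059 without 1 day replicate 2 (adjusted p = 0.931). After 1 week it was 0.030, with a 95% interval from -0.47 to 0.53 (adjusted p = 0.977).

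The promoters of Irs1 and Irs2 are shown because both hold the letters TGTTTTG, the core of the insulin response element to which FoxO proteins bind in several insulin-repressed genes, next to a CACGTG E-box. The sequences are the 250 bases before the start of each gene from RefSeq on GRCm38.p6, another build than the one named for the counts, at chr1:82291440-82291689 and chr8:11008930-11009179, both on the minus strand. Capitals mark TGTTTTG and CACGTG on either strand. In Irs1 these overlap by their shared TG, so that the first capital run holds both.
Irs1: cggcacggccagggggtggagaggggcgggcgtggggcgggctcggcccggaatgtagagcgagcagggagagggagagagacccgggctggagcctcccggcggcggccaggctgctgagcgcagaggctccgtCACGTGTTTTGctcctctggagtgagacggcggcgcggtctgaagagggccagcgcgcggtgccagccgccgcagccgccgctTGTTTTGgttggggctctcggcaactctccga
Irs2: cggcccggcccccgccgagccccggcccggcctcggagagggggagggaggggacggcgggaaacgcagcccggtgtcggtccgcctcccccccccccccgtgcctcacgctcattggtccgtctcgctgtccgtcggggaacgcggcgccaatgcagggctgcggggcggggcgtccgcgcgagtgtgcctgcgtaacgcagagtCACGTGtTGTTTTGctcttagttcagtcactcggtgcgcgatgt
In Irs1 the E-box begins 115 bases before the stated start and matches of TGTTTTG begin 111 and 32 bases before it. In Irs2 the E-box begins at 44 and the match at 37 bases. For both genes the bases just after the stated start were not found whole in an annotated transcript (GENCODE M21). The starts, and the distances from them, are therefore uncertain. Of 32851 promoter windows of this length 5.56% hold TGTTTTG, 6.02% hold CACGTG and 0.295% hold both. The median window has 52.4% G and C and 6 CG steps, against 72.4% and 28 in Irs1 and 72.8% and 34 in Irs2. The shares were not matched for this composition, so they do not give the rate among windows like these. The forkhead core GTAAACA is in 3.17% of windows, and AGAACA, which is only a part of the glucocorticoid receptor motif, in 16.1%. Neither is in any of the 8 windows found for the 7 genes with an entry, which are Igf1r, Igf1, Irs1, Irs2, Pik3r1, Foxo1 and Foxo3. The Igf1 window lies wholly in annotated exon, with all 250 bases. A match describes the letters of the window and is not evidence of binding in this tissue.

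Pik3r1 encodes the regulatory subunit that holds the catalytic subunit of phosphoinositide 3-kinase and binds the phosphorylated substrates. It was at 188, 205 and 163 CPM in the 1 week group, at 189, 246 and 192 CPM in the 1 day group and at 182, 176 and 192 CPM in the ad libitum group. The highest value came from 1 day replicate 2, and the groups overlap. Its log2 fold change was 0.015 after 1 week (95% interval -0.27 to 0.30, edgeR adjusted p = 0.980) and 0.19 after 1 day (interval -0.10 to 0.48, adjusted p = 0.608), and the 1 day value was 0.055 without both 1 day replicate 2 and 1 week replicate 2.

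Of the FoxO factors, Foxo1, Foxo3 and Foxo4 were higher in each 1 week library than in any ad libitum library, and none passed the test. Foxo3, a regulator of stress resistance and autophagy genes, was at 90.6, 101 and 108 CPM in the 1 week group, at 100.3, 79.9 and 87.7 CPM in the 1 day group and at 79.8, 83.9 and 88.3 CPM in the ad libitum group. The 1 day group overlapped both other groups. For Foxo3 the estimate was a log2 fold change of 0.25 after 1 week (SE 0.11, edgeR adjusted p = 0.448) and 0.089 after 1 day (SE 0.11, adjusted p = 0.773).

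Foxo1, which drives glucose production genes in liver, was at 31.0, 28.0 and 51.4 CPM in the 1 week group, at 31.2, 18.5 and 30.0 CPM in the 1 day group and at 26.2, 23.9 and 25.4 CPM in the ad libitum group. The ad libitum libraries were close together, 1 day replicate 2 was the lowest library and 1 week replicate 3 the highest by 0.72 on the log2 scale. The log2 fold change after 1 week was 0.55 (SE 0.25, edgeR adjusted p = 0.454), and it was 0.23 without 1 week replicate 3 (adjusted p = 0.796). After 1 day it was 0.077 (SE 0.25, adjusted p = 0.920), and 0.28 without 1 day replicate 2 (adjusted p = 0.843).

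Foxo4, the X-linked member of the family, was at 29.2, 35.2 and 31.2 CPM in the 1 week group, at 29.2, 36.2 and 26.3 CPM in the 1 day group and at 22.9, 27.7 and 28.5 CPM in the ad libitum group. The highest and the second highest value both came from replicate 2 of a fasted group. Foxo4 had a log2 fold change of 0.27 after 1 week (SE 0.14, edgeR adjusted p = 0.534) and 0.21 after 1 day (SE 0.14, adjusted p = 0.605), and the 1 day value was 0.073 without 1 day replicate 2.

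Foxo6, a factor of brain that is known for its role in hippocampal memory, was at 6.17, 4.55 and 16.2 CPM in the 1 week group, at 5.40, 2.25 and 7.03 CPM in the 1 day group and at 7.80, 8.88 and 5.26 CPM in the ad libitum group. Its 1 week values included the highest of the 9 libraries, and all groups overlap. Of the genes compared, 98.8% of 12799 had a smaller spread within groups. The log2 fold change was 0.29 after 1 week (95% interval -0.89 to 1.48, edgeR adjusted p = 0.882) and turned to -0.44 without 1 week replicate 3. After 1 day it was -0.58 (interval -1.77 to 0.62, adjusted p = 0.696).

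The library with the highest Foxo1 and Foxo6 also had the highest summed level of the cortical neuron markers given here. The summed level of 4 such genes, Slc17a7, Neurod2, Neurod6 and Tbr1, was 558 CPM in 1 week replicate 3 and 16.7 and 46.5 CPM in the other 1 week libraries, against 9.84 to 13.5 CPM in the 1 day group and 39.0 to 63.9 CPM in the ad libitum group. Slc17a7 alone was at 501 CPM in 1 week replicate 3, so this sum is mainly the level of 1 gene, and none of the 4 was at 0 in any library. In 1 day replicate 2, Foxo1, Foxo6, Irs2 and the marker sum, at 9.84 CPM, were each the lowest of the 9 libraries. That library was the lowest for 27.3% of 12799 genes, and 1 week replicate 3 was the highest for 13.2%. Insr, Irs2 and Foxo3 were also highest in 1 week replicate 3. In 1 day replicates 1 and 3, at marker sums of 13.5 and 10.3 CPM, Foxo1 was at 31.2 and 30.0 CPM. The part of cortical tissue in the Foxo1, Foxo6 and Irs2 values was not tested.

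**Figure D3:**
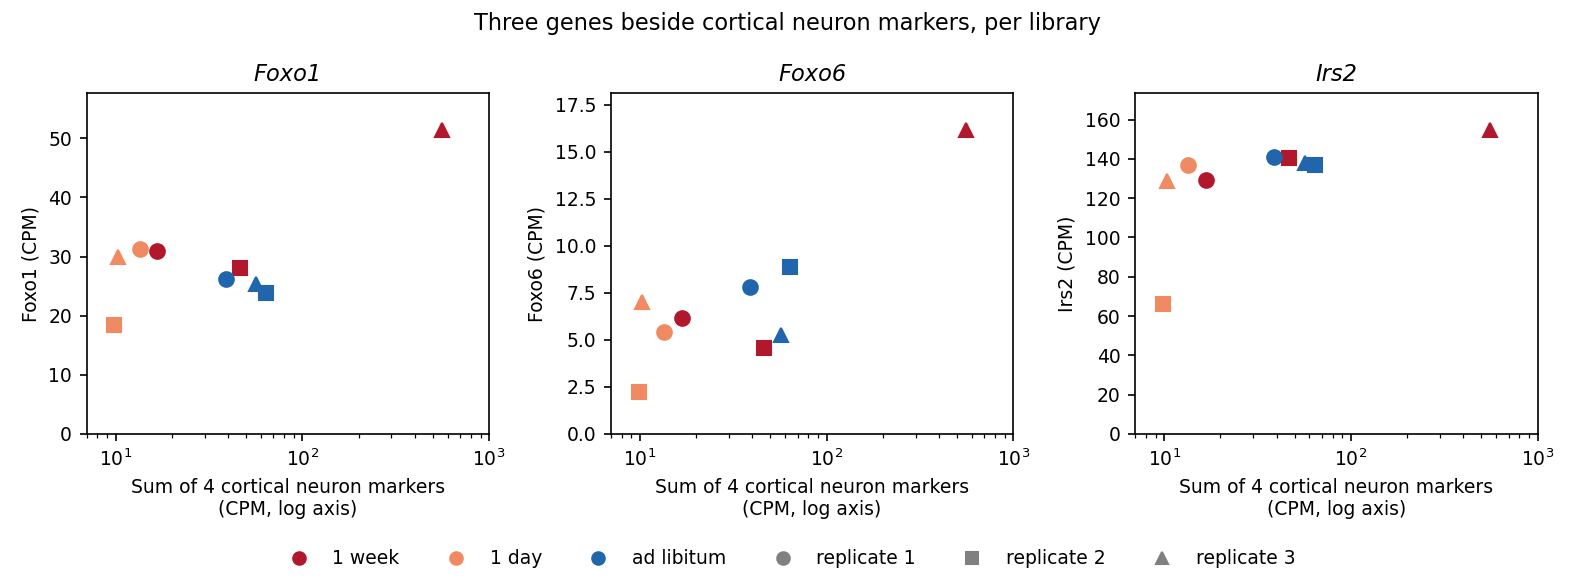
CPM of Foxo1, Foxo6 and Irs2 (vertical axes from 0) against the summed CPM of 4 cortical neuron markers (log axis), 1 point per library, with colour for the group and symbol for the replicate. The point of 1 week replicate 3, at a marker sum of 558 CPM, is highest in all 3 panels. The point of 1 day replicate 2, at 9.84 CPM, is lowest in all 3. The panels show genes with these extremes, so this restates the choice of genes. Insr, not shown, had the same highest and lowest library, and Foxo3, not shown, had the same highest library. Of 12799 genes, 27.3% were lowest in 1 day replicate 2 and 13.2% were highest in 1 week replicate 3.

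Between 1 week and 1 day none of the 10 genes lay wholly above or below, where 4.5% and 3.28% of all genes did. The largest estimate was that of Foxo6, with a log2 fold change of 0.87 for 1 week against 1 day (95% interval -0.32 to 2.06, edgeR adjusted p = 0.853), followed by Foxo1 at 0.47 (interval -0.085 to 1.02) and Irs2 at 0.35 (interval -0.15 to 0.86), both with adjusted p = 0.853. Without 1 week replicate 3 the values of Foxo6 and Foxo1 were 0.13 and 0.15, and without 1 day replicate 2 that of Irs2 was 0.096. Insr, at 0.037 (interval -0.16 to 0.23), and Irs1, at -0.057 (interval -0.27 to 0.15), had the narrowest intervals.

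Levels of different genes were set side by side as CPM per kilobase of annotated exon, with exon lengths from GENCODE M21. The median over the 9 libraries was highest for Irs2 at 21.7 CPM per kilobase and Pik3r1 at 18.7, and these overlap, with 10.4 to 24.5 and 16.1 to 24.4 CPM per kilobase. Foxo3 followed at 11.7, above Igf1r at 8.85, Foxo4 at 8.37 and Insr at 7.24 CPM per kilobase, and the ranges of Igf1r, Foxo4 and Insr overlap in part. Irs1 was at 5.85, Foxo1 at 3.24, Foxo6 at 2.36 and Igf1 at 1.22 CPM per kilobase. The ranges of Foxo6, 0.859 to 6.18, and Igf1, 0.843 to 1.73 CPM per kilobase, overlap, and that of Foxo6 also overlaps those of Foxo1 and Irs1. With the length of the longest coding transcript in place of all exons, Pik3r1 moved above Irs2, Igf1r above Foxo3 and Insr above Foxo4, so these orders rest on the length used.

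Within the FoxO family Foxo3 gave the largest share of the summed level per kilobase in each of the 9 libraries. Its share was 44.2 ± 3.50% in the 1 week group, 46.2 ± 2.23% in the 1 day group and 45.5 ± 1.52% in the ad libitum group (SD, n = 3 each). Foxo4 had 25.4 to 43.4% over the 9 libraries, Foxo1 8.91 to 16.8% and Foxo6 3.59 to 17.5%. In 1 day replicate 2 Foxo4, at 43.4%, came close to Foxo3, at 44.1%. The summed CPM of the 4 factors was 157 to 206 in the 1 week group, 137 to 166 in the 1 day group and 137 to 147 in the ad libitum group. This sum restates the levels of Foxo1, Foxo3 and Foxo4 given above and is not a further result.

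For each gene the transcripts with the most similar profile were sought among 12037 named genes, by the mean absolute difference of standardised log2 CPM over the 9 libraries, in SD units, where 0 is the same profile and the median gene lies at 1.05 to 1.17. Irs2 had the closest neighbours, Sstr1, a somatostatin receptor gene, Lrrn2 and Cfl1, which encodes the actin regulator cofilin, at 0.106 to 0.109 SD, and its own profile is mainly the low value of 1 day replicate 2. Foxo4 was closest to Spg7, a mitochondrial protease gene, at 0.114 SD, and Pik3r1 to Glod4 at 0.141 SD. Foxo6 was closest to Baiap2, a gene of postsynaptic scaffolds, at 0.163 SD, Foxo1 to Capn5, a calpain, at 0.188 SD, and Igf1r to Dmpk, a kinase gene, at 0.181 SD. Foxo3, Igf1 and Insr had their nearest neighbours at 0.208, 0.226 and 0.239 SD, namely Sspo, Skap2 and Paxx, and Irs1, the flattest profile but for that of Insr, had none closer than Fam181b at 0.335 SD. Among the 10 genes themselves the closest pair was Foxo3 and Igf1r at 0.421 SD, followed by Foxo1 and Insr at 0.437 SD. These likenesses rest on 9 libraries and describe the profiles only.

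Around these 10 genes, few pathway members passed the test. Of 11 measured genes for other ligands, receptors and binding proteins, edgeR called 0 after 1 week and 0 after 1 day. At an unadjusted p below 0.05 there were 2 and 0, against 11.2% and 9.27% of all genes. DESeq2 called 1 of the 11 after 1 week, Igfbp3, which encodes a carrier of insulin-like growth factors in blood. After 1 day DESeq2 called 0, and voom called 0 in both. Igfbp3 was at 9.16 to 20.3 CPM in the 1 week group and at 6.15 to 7.61 CPM in the ad libitum group (log2 fold change 0.96, SE 0.27, edgeR adjusted p = 0.209). Over the 11 genes the median was 0.33 after 1 week and -0.36 after 1 day on the log2 scale. Markers of meninges and fibroblasts, cells known to express several binding proteins and Igf2, had summed levels of 48.8 to 149 CPM in the 1 week group, 32.7 to 57.6 CPM in the 1 day group and 46.5 to 112 CPM in the ad libitum group, and their part was not tested. Igf2 itself was at 262 CPM in 1 week replicate 3, the library with the highest sum of these markers, and at 40.5 CPM in 1 day replicate 3, the library with the lowest.

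Of 19 adaptors and kinases between the receptors and Akt targets, 0 passed by edgeR, DESeq2 or voom in either comparison with ad libitum. By edgeR 2 after 1 week and 3 after 1 day had an unadjusted p below 0.05, against 11.2% and 9.27% of all genes. Akt2, the Akt isoform most tied to insulin action, was at 48.4, 48.4 and 48.6 CPM in the 1 week group, at 47.1, 47.3 and 43.6 CPM in the 1 day group and at 57.4, 59.1 and 52.1 CPM in the ad libitum group. Every fasted library lay below every ad libitum library. With each comparison taken alone, 11.5% of all genes lay wholly below after 1 week and 10.3% after 1 day. The share of genes that did so in both was not counted. The log2 fold changes of Akt2 were -0.21 after 1 week and -0.29 after 1 day (SE 0.091 each, edgeR adjusted p = 0.414 and 0.434). Gab1, a docking protein for growth factor receptors, was likewise lower in each fasted library, at 68.2 ± 13.8 CPM after 1 week and 71.7 ± 3.22 CPM after 1 day, against 93.3 ± 5.80 CPM with food throughout (SD, n = 3 each, adjusted p = 0.245 after 1 week and 0.486 after 1 day).

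Of 16 inhibitors of the pathway 0 passed by edgeR, DESeq2 or voom after 1 week or 1 day, and 2 had an unadjusted p below 0.05 in each. By edgeR 11.2% and 9.27% of all genes reached that level after 1 week and 1 day. Pik3ip1, an inhibitor of phosphoinositide 3-kinase, was at 42.7, 43.8 and 43.3 CPM in the 1 week group, at 41.5, 43.3 and 41.6 CPM in the 1 day group and at 36.3, 37.0 and 37.4 CPM in the ad libitum group. The fasted groups lay above the ad libitum group without overlap. With each comparison taken alone, so did 10.9% of all genes after 1 week and 8.17% after 1 day, and the share in both was not counted. The log2 fold changes of Pik3ip1 were 0.23 and 0.19 after 1 week and 1 day (SE 0.083 each, edgeR adjusted p = 0.333 and 0.532). Enpp1, an ectoenzyme that inhibits the insulin receptor, had log2 fold changes of -0.71 after 1 week and -0.66 after 1 day (SE 0.27 each, adjusted p = 0.364 and 0.528).

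Among 19 regulators of FoxO proteins edgeR called 1 as higher in each comparison with ad libitum and 0 as lower, where 0.253% of all genes were called higher after 1 week and 0.0536% after 1 day. It was Sgk1, a kinase that phosphorylates FoxO3 and is itself induced by glucocorticoids, at 287, 255 and 311 CPM in the 1 week group, at 256, 153 and 239 CPM in the 1 day group and at 51.9, 40.6 and 49.9 CPM in the ad libitum group. Its log2 fold change was 2.58 after 1 week (SE 0.20, edgeR adjusted p = 0.00154) and 2.19 after 1 day (SE 0.19, adjusted p = 0.00468). The 1 week call held in each fit that left out a library, while the 1 day call ended when any ad libitum library was left out (adjusted p = 0.0522, 0.0792 and 0.0650 without replicates 1, 2 and 3). The related kinase genes Sgk2 and Sgk3 had log2 fold changes of -1.23 (SE 0.24) and 1.98 (SE 0.36) after 1 week, with edgeR adjusted p of 0.0803 and 0.0751, and DESeq2 called both and voom Sgk2. After 1 day Sgk2 had a log2 fold change of -1.16 (SE 0.24, edgeR adjusted p = 0.182) and was called lower by DESeq2.

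Of 24 FoxO target genes listed, 23 were tested (Trim63 was under the filter on low counts). After 1 week 3 rose, 0 fell and 20 did not pass by edgeR, where 0.253% of all genes were called higher and 0.0536% lower. Klf15, a transcription factor of amino acid and glucose metabolism in fasting, rose to 58.0 ± 7.13 CPM in the 1 week group, against 26.1 ± 2.72 CPM in the ad libitum group (SD, n = 3, log2 fold change 1.15, SE 0.14, edgeR adjusted p = 0.00957). Pdk4, which limits the oxidation of glucose, rose to 25.2 ± 5.96 CPM in the 1 week group, against 9.73 ± 0.630 CPM in the ad libitum group (SD, n = 3, log2 fold change 1.37, SE 0.19, edgeR adjusted p = 0.0229). Cdkn1a, a cell cycle inhibitor, rose to 88.8 ± 34.9 CPM in the 1 week group, against 9.77 ± 1.29 CPM in the ad libitum group (SD, n = 3, log2 fold change 3.18, SE 0.41, edgeR adjusted p = 0.0242). All 3 genes are also induced through the glucocorticoid receptor, and the list was written with results of these data known, so it is not independent evidence of a direction. The count dropped to 0 when any ad libitum library was left out, replicate 1, 2 or 3 alike, and to 1, Klf15, when 1 week replicate 2 or 3 was.

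After 1 day 0 of the 23 targets passed by edgeR. At an unadjusted p below 0.05 edgeR had 10 of them, 8 higher and 2 lower, against 4.37% and 4.9% of all genes. DESeq2 called 3, the same Klf15, Cdkn1a and Pdk4, and voom 2, Klf15 and Cdkn1a. These tools also called more of all genes after 1 day, 0.915% by DESeq2 and 0.278% by voom, against 0.0584% by edgeR. Klf15 averaged 43.3 ± 5.77 CPM after 1 day, against 26.1 ± 2.72 CPM with food throughout (SD, n = 3 each) (log2 fold change 0.73, edgeR adjusted p = 0.129). Over the 23 targets the median was 0.19 after 1 week and 0.14 after 1 day on the log2 scale. Targets did not all lie on the higher side, since Tnfsf10, a ligand of cell death receptors, had log2 fold changes of -1.09 after 1 week and -0.85 after 1 day (SE 0.25 each, adjusted p = 0.129 and 0.404), and 7 of the 23 after 1 week and 8 after 1 day were below 0. Between 1 week and 1 day edgeR, DESeq2 and voom called 0 genes of these 5 lists. At an unadjusted p below 0.05 edgeR had 6 ligand and binding protein genes, 2 adaptors or kinases, 1 inhibitor, 1 regulator and 4 targets. Of all genes 5.22% reached that level.

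**Figure D4:**
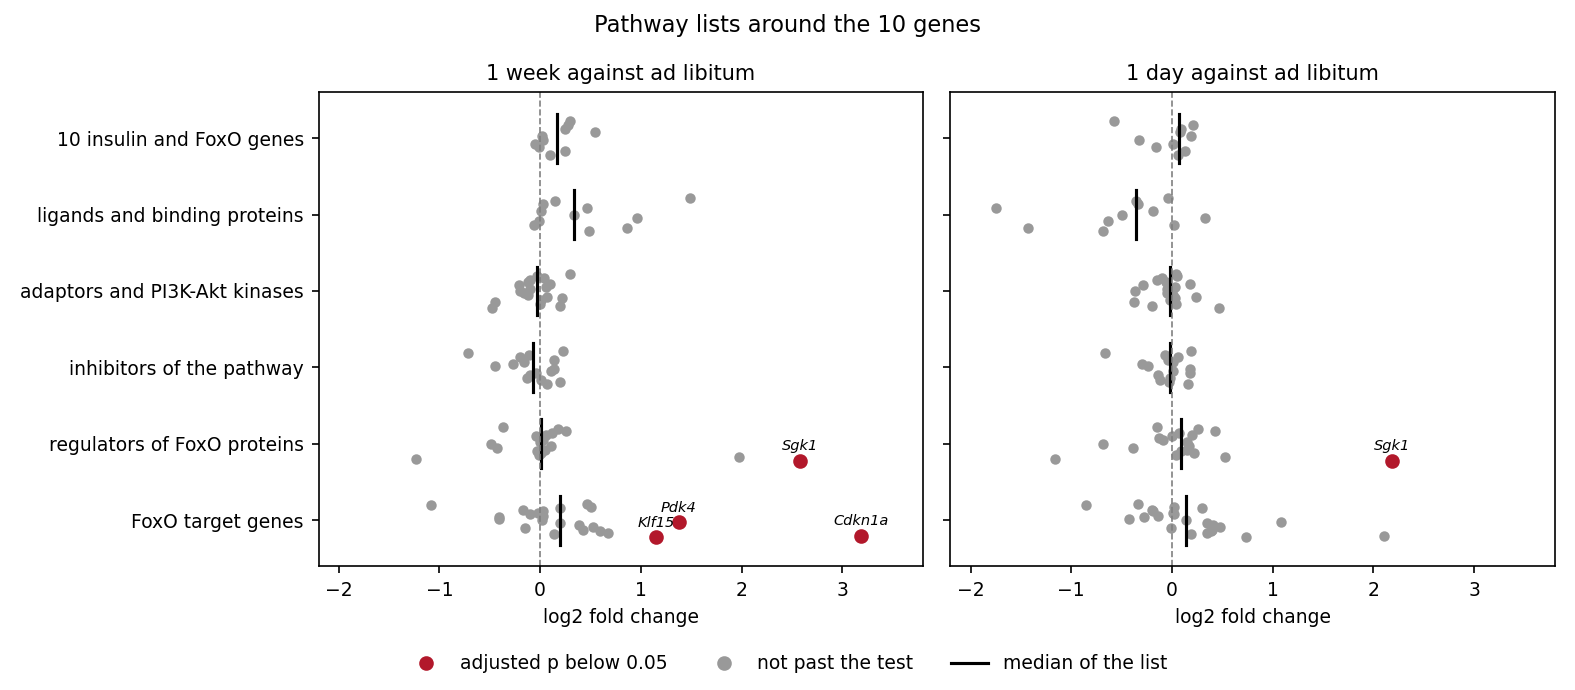
Log2 fold change (horizontal axis) of each tested gene, in rows for the 10 insulin and FoxO genes and the 5 pathway lists, for 1 week and for 1 day against ad libitum. Red points with names passed an adjusted p of 0.05 (edgeR), grey points did not, and black lines mark each list's median. Sgk1 is called in both panels, and Klf15, Pdk4 and Cdkn1a in that of 1 week alone, where a call in 1 panel does not show a difference between the panels.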

How the data were processed

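In the deposited table each gene has an estimated count in each of the 9 libraries, written as a whole number and not scaled to depth. The submitters' processing notes name Salmon, DESeq2 1.40.2 and the builds GRCm39 and mm39, with no Salmon version, annotation or row filter. Per the labels' protocols, the library kit was directional. The lowest row mean was 9.89 counts. Library sizes were adjusted with TMM. After filterByExpr removed 56 rows (at a minimum count of 10 and a minimum total of 15), edgeR 4.0.16 (R 4.3.3) fitted a robust quasi-likelihood model to all 9 libraries, with Benjamini-Hochberg adjustment over 20535 genes. Standard errors and 95% intervals came from the F statistics. Log2 CPM used a prior count of 2. DESeq2 1.42.0 and limma 3.58.1 were alternatives. The steps were tested on simulated data. Of simulated 1.5-fold changes, edgeR recovered 10.4% for 1 day and 13.4% for 1 week against ad libitum, and 16.4% for 1 week against 1 day. False calls numbered 10, 8 and 6 in that order. The absence of a call is therefore not evidence that a gene did not change. No pair of libraries in a group matched within sampling noise (lowest chi-square per gene 39.0). Between 1 week and 1 day, deviations of same-numbered libraries from group means correlated at 0.154, 0.475 and 0.102 for replicates 1, 2 and 3. Against ad libitum, correlations ranged from -0.305 to 0.248. The highest of these, for replicate 3 of the 1 week group, was above the values of replicates 1 and 3 between the fasted groups. The labels give no shared batch, and the correlations do not settle whether the numbers pair libraries. A fit with a replicate block was therefore an alternative only. The members, lists and tests were chosen with earlier results of these data known. All 10 members are named. From each pathway list, called genes and the 4 with the smallest p could be named, and others were named after their values were seen, namely Igf2 among the ligands. Promoters came from RefSeq (GRCm38.p6), lengths from GENCODE M21. Salmon divides reads between similar transcripts, so levels of close paralogs are uncertain. The cortical neuron marker list held 1 further gene, which is not reported here and is not in the sums, so the 4 markers given are not the whole list.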

Additional observations from a re-analysis of the deposited data

How the results depend on the processing

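In all 17 alternatives 0 of the 10 genes passed in any of the 3 comparisons, and the lowest adjusted p of any of them was 0.182, for Foxo1 after 1 week without 1 day replicate 2 and 1 week replicate 2. These are called the libraries that stood apart, and their quality weights were the lowest, 0.213 and 0.507. That fit kept 1 week replicate 3, the library with the highest Foxo1. Values near 0 changed sign in places. After 1 week, Igf1 was 0.00011 when only genes with 1 CPM or more in 6 libraries were kept, and Pik3r1 was -0.017 by limma's voom and -0.055 without both libraries that stood apart, neither called. Over fits that left out 1 library, log2 fold changes after 1 week ranged from -0.12 to 0.21 for Igf1, from -0.44 to 0.62 for Foxo6, from -0.036 to 0.090 for Irs2 and from -0.055 to 0.10 for Pik3r1. After 1 day they ranged from -0.046 to 0.061 for Irs1, from -0.45 to 0.060 for Igf1, from -0.056 to 0.28 for Foxo1 and from -0.0027 to 0.16 for Foxo3. For 1 week against 1 day they ranged from -0.0082 to 0.070 for Insr, from -0.062 to 0.44 for Igf1 and from -0.035 to 0.21 for Foxo4. The same alternatives were applied to the FoxO targets after seeing the data. After 1 week the count called was 3, against 6 by DESeq2, 5 by voom, 1 with the replicate block and 0 to 4 without 1 library. After 1 day it was 0, against 3 by DESeq2, 2 by voom, 1 without both libraries that stood apart and 0 to 1 without 1 library. The cause of these differences was not tested. With the replicate block 0 of the 10 genes passed in each comparison. For 1 week against 1 day the block left the count over all genes at 0. At an unadjusted p below 0.05 it had Foxo1 alone of the 10 in that comparison. Against ad libitum it had Igf1r and Foxo1 at that level after 1 week, and 0 of the 10 after 1 day. The share of all genes at that level was not counted for this fit, so these genes stand without a base rate. Against ad libitum the block called 32 genes after 1 week and 2 after 1 day, against 63 and 12 without it. DESeq2 called 464 and 184, and voom 218 and 57.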
